A study of Mus musculus with 2 samples.

Results

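The genes described here are 39 S phase genes, the transcripts that a cell makes when it commits to copying its DNA, chosen by name from a fixed symbol list. All 39 were found among the 31053 features of both count matrices. They are followed across microglia, border-associated macrophages, a small class of monocytes and granulocytes, and neural cells of the embryonic mouse brain.

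The cells came from the hypothalamic and thalamic region of CD1 embryos (an outbred mouse stock, with no transgene) at E15.5 (embryonic day). The control library pooled the tissue of 10 embryos of 1 dam. The stressed library pooled that of 5 embryos of 1 dam, which had been kept at 4 °C for 30 min a day over 5 days from E11.5. Cells stained with both Cd11b-PE and Cd45-FITC were sorted and profiled by 10x Genomics 3′ version 3 single-cell RNA sequencing, in 1 library per condition. With 1 pool of 1 litter each, condition, litter, pool size and sex make-up cannot be told apart, and no test between the conditions exists. The intervals given are exact 95% intervals that cover counting error only.

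Entry into S phase begins in late G1, when cyclin-dependent kinases release E2F transcription factors and a group of replication genes is switched on together. The products load and start the MCM helicase at origins, supply nucleotides, build new strands at the fork, repair errors and wrap the copies in new histones. In the embryonic brain, microglia multiply inside the tissue they have colonised, while neural progenitors divide near the ventricle and stop dividing as they become neurons. Transcripts of S phase genes are widely used as markers of cells that are copying their DNA.

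Promoters are shown for 4 members on which the results below turn: Mcm6 and Mcm5, subunits of the helicase, Hells, a chromatin remodeller, and Slbp, the protein that binds the stem-loop of histone mRNAs. The first 3 were lower in neural cells than in microglia, and Slbp had the smallest fold of the 29 members of 10 CPM or more in both libraries between microglia of different replication state. The sequences are from RefSeq (GRCm38.p6), run from 250 bases before to 50 bases after the gene's start, and are printed 5′ to 3′ on the gene's strand. Capitals mark E2F words (TTTGGCGC, TTTCCCGC, TTTCGCGC or TTTGGCGG, searched on both strands) in Mcm6, Mcm5 and Hells, and the word CCAAT in Slbp. The windows lie at chr1:128359656-128359955 on the minus strand for Mcm6, chr8:75109259-75109558 on the plus strand for Mcm5, chr19:38930740-38931039 on the plus strand for Hells and chr5:33652525-33652824 on the minus strand for Slbp.
Mcm6: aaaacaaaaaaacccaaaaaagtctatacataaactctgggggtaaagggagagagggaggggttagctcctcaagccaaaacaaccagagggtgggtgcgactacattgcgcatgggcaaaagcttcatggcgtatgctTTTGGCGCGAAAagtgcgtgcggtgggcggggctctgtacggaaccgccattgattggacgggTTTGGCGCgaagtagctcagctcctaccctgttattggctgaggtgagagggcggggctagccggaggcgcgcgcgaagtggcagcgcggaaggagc
Mcm5: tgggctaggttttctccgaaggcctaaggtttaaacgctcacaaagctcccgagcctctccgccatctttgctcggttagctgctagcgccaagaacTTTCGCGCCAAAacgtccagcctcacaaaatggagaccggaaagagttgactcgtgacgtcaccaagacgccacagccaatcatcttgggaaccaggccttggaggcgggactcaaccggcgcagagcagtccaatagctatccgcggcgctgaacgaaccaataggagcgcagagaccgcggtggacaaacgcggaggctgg
Hells: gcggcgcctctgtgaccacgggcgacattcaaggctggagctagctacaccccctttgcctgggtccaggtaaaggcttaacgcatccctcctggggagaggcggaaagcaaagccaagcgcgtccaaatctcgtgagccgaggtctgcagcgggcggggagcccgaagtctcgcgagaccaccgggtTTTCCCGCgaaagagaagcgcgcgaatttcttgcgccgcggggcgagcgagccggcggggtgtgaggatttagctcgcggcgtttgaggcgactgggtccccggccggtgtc
Slbp: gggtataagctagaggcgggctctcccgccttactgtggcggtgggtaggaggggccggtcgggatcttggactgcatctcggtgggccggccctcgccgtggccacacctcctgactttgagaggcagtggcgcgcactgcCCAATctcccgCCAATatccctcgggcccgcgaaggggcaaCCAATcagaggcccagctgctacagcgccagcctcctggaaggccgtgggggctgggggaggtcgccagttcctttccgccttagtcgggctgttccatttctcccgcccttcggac

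The Mcm6 window held 3 E2F words, starting at positions -110, -106 and -47 from the gene's start, the first pair overlapping on opposite strands. Mcm5 held 2 such words, also overlapping on opposite strands, and Hells held 1. Fen1, Tyms, Pcna and Rrm1, which were also called lower in neural cells, held none of these words. Slbp held none of the 4 words and 3 copies of CCAAT. That word also stood, unmarked above, 3 times in Mcm5 and 2 times in Mcm6. Rrm2, which had the largest fold between microglia of different replication state among members with at least 20 UMIs, held no E2F word either. Promoters of 29 of the 39 members were in the table, and 12 of them (41.4%) held an E2F word, against 2.70% of all 27025 genes of the table and 2.37% of its 32851 promoters. CCAAT stood in 20 of the 29 (69.0%), against 41.1% of all genes and 37.4% of all promoters, and no E2F word overlapped a CCAAT. A match describes letters in a window and is neither a site nor a cause.

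The libraries held 1156 control and 1467 stressed barcodes with median depths of 1947.5 and 3767 UMIs (unique molecular identifiers, each counting 1 captured transcript). Of these, 1068 and 1407 were kept, having 500 or more genes and no more than 10% of UMIs from mitochondrial genes. Classes were gated on marker sums. Microglia (P2ry12, Siglech, Sall1 and others) numbered 676 control and 1145 stressed cells, border-associated macrophages (Mrc1, F13a1, Pf4 and others) 88 and 44, monocytes and granulocytes 17 and 19, and neural cells 199 and 150. A further 88 and 49 cells met no gate. The labels name all sorted cells microglia, yet the neural class held 0 control and 1 stressed UMI of Ptprc, which encodes Cd45, and no UMI of Itgam, which encodes Cd11b. The 10 pan-macrophage markers summed to 96.7 and 206 CPM (UMIs of a gene or list scaled to 1000000 UMIs of its class) in neural cells, against 16630 and 17703 in microglia (RNA free in the droplets was not measured separately, as empty droplets were not analysed here). The 17 control cells of the monocyte and granulocyte class carried neutrophil granule genes (Ngp 5414 CPM, Camp 6719 CPM) that had no UMI in the 19 stressed cells, so that class differed in make-up between the libraries. Female cells, with Xist and no Y-linked UMI, made up 227 of 676 control and 1068 of 1145 stressed microglia. Those with Y-linked UMIs and no Xist numbered 134 and 0. The other microglia held neither or both and were given no sex, and a shallow cell can lack either by depth alone. Barcodes found in both libraries numbered 13, and 7 control and 4 stressed cells that carried them were neural. Without them none of the shares, summed levels and counts of calls tried moved past the limits given below. The members called lower in neural cells than in microglia lost Rrm1 and gained Casp8ap2.

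A cell was counted as S positive when it held at least 5 UMIs of the 39 members after every cell had been thinned to 1000 UMIs. Among microglia, 31 of 645 control cells (4.81%, interval 3.29 to 6.75) and 65 of 1143 stressed cells (5.69%, interval 4.42 to 7.19) were S positive, and the intervals overlapped. Neural cells gave 10 of 175 (5.71%, interval 2.77 to 10.3) and 12 of 146 (8.22%, interval 4.32 to 13.9). The intervals of these microglial and neural shares all overlapped. Among border-associated macrophages 5 of 86 control cells (5.81%) and 0 of 44 stressed cells were S positive, the latter allowing a share of up to 6.82% as 3 cells of 44, or 8.04% as the exact upper bound. None of the 17 control and 19 stressed monocytes and granulocytes was S positive, which allows up to 17.6% and 15.8% as 3 cells of each number, or 19.5% and 17.6% as exact upper bounds. Without thinning, 18.3% of control and 32.8% of stressed microglia held 5 or more member UMIs, at median depths of 2160 and 3986 UMIs per cell. Most of the gap between the libraries seen in raw cells was thus absent at equal depth.

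The shares rest on a low threshold. In thinned microglia, 56.6% of control and 52.4% of stressed cells held no member UMI, 31.2% and 31.8% held 1 or 2, and 7.44% and 10.1% held 3 or 4. Just outside the threshold stood 23 and 49 cells with 4 UMIs, and just inside it 16 and 28 cells with 5. The median S positive microglia carried 5 different members in each library, so the calls did not rest on a single gene there.

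Adding cells with at least 5 UMIs of 52 G2 and mitosis genes gave the cycling share. It was 18.6% (120 of 645, interval 15.7 to 21.8) in control and 18.2% (208 of 1143, interval 16.0 to 20.6) in stressed microglia. In neural cells it was 20.6% (36 of 175, interval 14.8 to 27.3) and 19.9% (29 of 146, interval 13.7 to 27.3). Within each class the libraries thus differed by less than 1 percentage point. Border-associated macrophages stood at 27.9% (24 of 86, interval 18.8 to 38.6) in the control and 11.4% (5 of 44, interval 3.79 to 24.6) in the stressed library, with overlapping intervals. The monocyte and granulocyte class gave 3 of 17 and 5 of 19 cells. The proliferation genes Mki67 and Top2a stood at 94.3 and 87.5 CPM in control and 84.8 and 99.1 CPM in stressed microglia. S positive cells also carried G2 and mitosis genes: 25.8% of the 31 control and 33.8% of the 65 stressed S positive microglia met the G2 and mitosis threshold too, against 14.5% and 13.3% of the other microglia. In neural cells 10 of 10 control and 8 of 12 stressed S positive cells did so, against 15.8% and 12.7% of the rest.

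**Figure D1:**
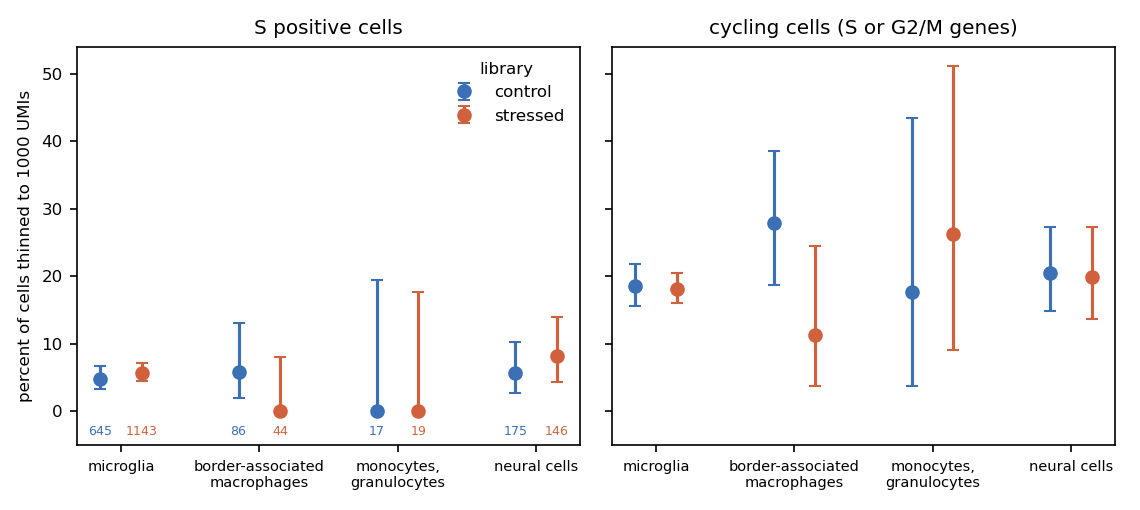
Percent of cells S positive (left) and cycling (right) in each class, at 1000 UMIs per cell, with the number of thinned cells printed along the left panel. Points are shares of 1 library, bars exact 95% intervals. Microglia and neural cells sit near 5 to 8% S positive and near 18 to 21% cycling in both libraries, and the small macrophage and monocyte classes have wide intervals.

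S positive cells did not hold most of the members' transcripts. They carried 23.5% of member UMIs in control and 19.6% in stressed microglia, while holding 5.85% and 5.96% of all UMIs. In neural cells they carried 31.6% and 30.9%. The 5 cells richest in members held 10.7% and 3.69% of member UMIs in microglia, but 34.1% and 53.4% in border-associated macrophages and 84.2% and 67.9% in the monocyte and granulocyte class. Sums over those small classes were thus set by few cells.

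Summed over all 39 genes, the level was 1135 CPM (interval 1086 to 1186) in control and 1183 CPM in stressed microglia, a log2 ratio of 0.06 (interval -0.01 to 0.13). Border-associated macrophages gave 1477 and 1098 CPM (log2 ratio -0.43, interval -0.64 to -0.22), and neural cells 1179 and 953 CPM (-0.31, interval -0.48 to -0.14). The monocyte and granulocyte class gave 528 and 608 CPM from 17 and 19 cells, below microglia of the same library in both. The microglial interval thus included 0, while those of border-associated macrophages and neural cells lay below it. The neural direction turned with per-cell means (0.04), and the ratio was -0.19 without 1 cell rich in Slbp, as described below. Without the S positive cells the microglial ratio was 0.13 (interval 0.05 to 0.22), the neural one -0.30 (interval -0.51 to -0.09) and that of border-associated macrophages -0.14 (interval -0.36 to 0.08). The gated border-associated macrophages also differed in make-up, as their own marker list summed to 9526 CPM in control and 5650 CPM in stressed cells and the monocyte and granulocyte list to 107 and 600 CPM, and the part of this in the ratio was not tested. In such sums, fewer cells in S phase and less S phase RNA per cell cannot be told apart. The neighbouring lists are given beside this. A list of 41 further replication genes, none of them a member, stood at 1046 and 982 CPM in microglia, 1244 and 922 CPM in border-associated macrophages and 1301 and 993 CPM in neural cells. The most abundant of those, Rpa3, Pola2 and Dut, stood at 81.8, 146 and 78.3 CPM in control and 75.0, 97.6 and 77.7 CPM in stressed microglia, and the G2 and mitosis list at 2528 and 2547 CPM there.

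The levels are given by role. Because each transcript is counted once from its 3′ end, CPM was compared between genes without a length correction. Among the helicase and loading genes (the MCM subunits, Gins2, Cdc45, the loader Cdc6 and Gmnn, the inhibitor of loading), microglia held 241 and 245 CPM in sum, in control and stressed cells. Neural cells held 134 and 137 CPM, a log2 ratio to microglia of -0.85 (interval -1.27 to -0.46) in the control and -0.83 (interval -1.16 to -0.52) in the stressed library. Helicase and loading transcripts thus stood lower in neural cells by nearly the same factor in each library. Chromatin and histone genes ran the other way in the control library, at 525 CPM in neural cells against 334 CPM in microglia (0.65, interval 0.42 to 0.87), while in the stressed library they stood at 385 against 346 CPM. That control sum holds 36 UMIs of Slbp from 1 neural cell, described below.

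Genes working at the fork summed to 309 and 323 CPM in microglia and 334 and 243 CPM in neural cells. Pcna, the sliding clamp that holds polymerases on DNA, was the most abundant member in microglia, at 97.8 CPM (171 UMIs) in control and 97.0 CPM (507 UMIs) in stressed cells. Pcna was detected in 16.0% of control and 27.4% of stressed microglia at their own depths. Rfc2, a subunit of the clamp loader, stood at 60.0 and 70.2 CPM, Tipin, a fork protection factor, at 52.6 and 60.5 CPM, and Slbp at 64.6 and 67.7 CPM. The least abundant members in microglia were the cohesion factor Dscc1 (4.57 CPM in the control) and the helicase partner Cdc45 (3.83 CPM in the stressed library). Pcna led in both libraries, and Rfc2 and Slbp, next in order, exchanged places with overlapping counting intervals.

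Nucleotide supply genes, which make the thymidine and deoxyribonucleotides that replication consumes, stood at 113 and 139 CPM in microglia and at 94.4 and 84.0 CPM in neural cells. Repair genes gave 96.1 and 89.0 CPM in microglia and 62.2 and 77.9 CPM in neural cells. The late G1 cyclin Ccne2, the repressor E2f8 and Dtl, which directs the destruction of licensing factors, summed to 41.2 and 42.1 CPM in microglia and 29.9 and 26.0 CPM in neural cells. All 39 members had a UMI in microglia of both libraries. In neural cells 37 control and 39 stressed members did, with Cdc6 and the exonuclease Exo1 missing in the control. In border-associated macrophages 39 and 37 did, with Cdc6 and E2f8 missing in the stressed cells. The monocyte and granulocyte class held UMIs of 13 and 25 members.

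**Figure D2:**
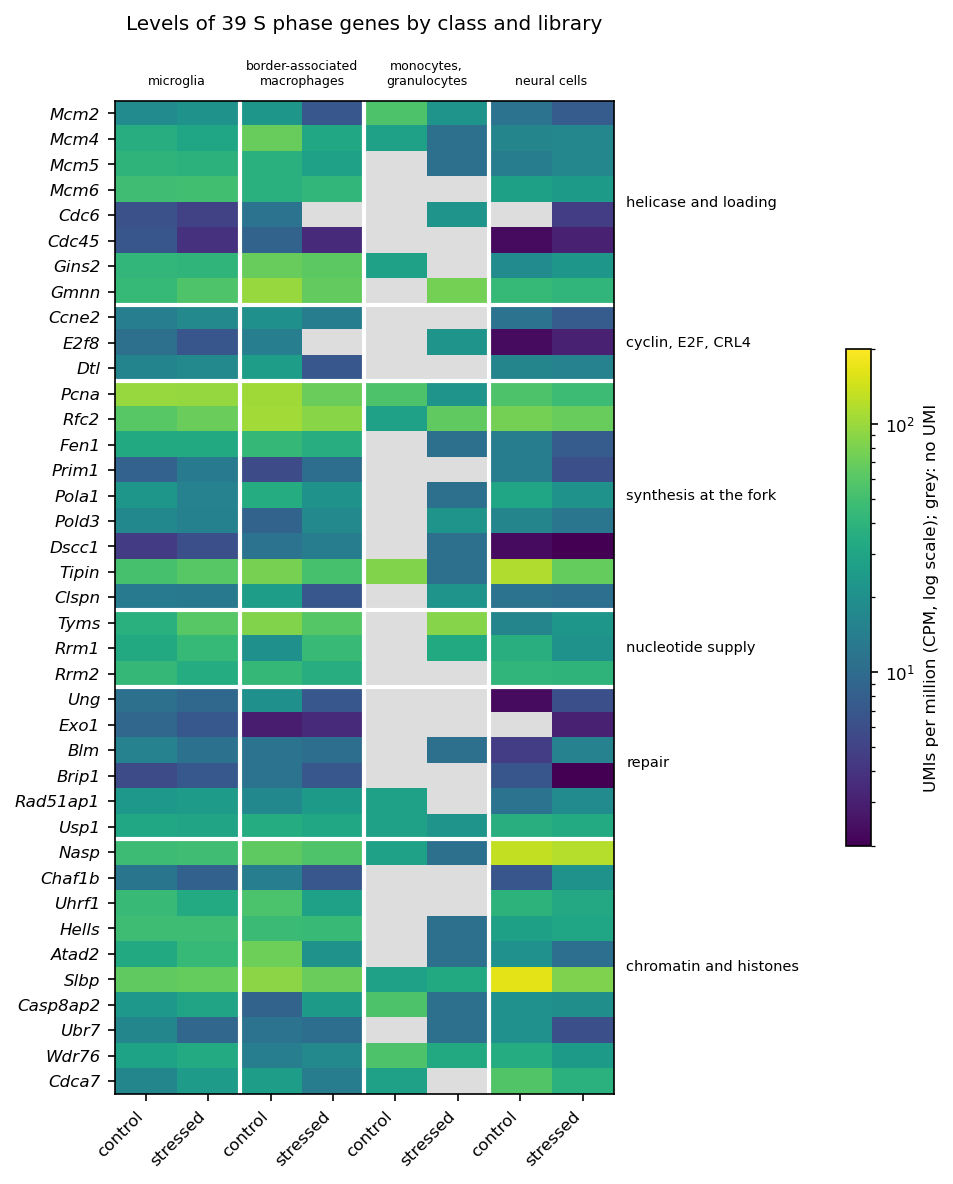
Level of each of the 39 genes (rows, grouped by role) in each class and library (columns), in CPM on a log colour scale, with grey for no UMI. Most helicase and loading genes are darker in neural cells than in microglia, with Gmnn level in the control library. Nasp and Cdca7 are brighter in neural cells in both libraries, Tipin and Slbp mainly in the control. Many cells of the monocyte and granulocyte columns are grey.

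Between neural cells and microglia calls were common among all genes, and those among the members lay mostly on the lower side. Class sums were compared with edgeR's quasi-likelihood test on 8 sums (4 classes in 2 libraries, with the library as a block). The fit gave all genes 1 shared spread, taken over all 4 classes of these 2 pools only. Each p thus sets a class difference against that shared spread and not against the gene's own spread between the pools. Of 39 members, 22 had enough UMIs to be tested, and 3 were higher and 10 lower in neural cells at a Benjamini-Hochberg adjusted p under 0.05. That is 13.6% higher and 45.5% lower, against 30.4% higher and 32.8% lower over all 6651 genes tested. The members' median log2 difference was -0.64, against -0.05 over all genes. With no filter on low counts, so that all 39 members entered, 1 was higher (2.56%) and 17 lower (43.6%), against 18.4% and 17.4% of all genes. The 17 untested members were Mcm2, Cdc6, Cdc45, Ccne2, E2f8, Dtl, Prim1, Pold3, Dscc1, Clspn, Ung, Exo1, Blm, Brip1, Rad51ap1, Chaf1b and Ubr7.

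The largest fall was in Fen1, the nuclease that trims Okazaki fragments. It stood at 13.8 and 7.64 CPM (6 and 5 UMIs) in control and stressed neural cells against 32.6 and 32.5 CPM in microglia. The groups did not overlap. The edgeR log2 difference was -1.98 (SE 0.42, adjusted p = 6.0e-06, lower in 2 of 2 libraries). Next came Atad2, a chromatin ATPase, at 20.7 and 10.7 CPM (9 and 7 UMIs) against 32.6 and 43.4 CPM. Its edgeR log2 difference was -1.72 (SE 0.37, adjusted p = 8.4e-06). Mcm5 stood at 13.8 and 16.8 CPM (6 and 11 UMIs) against 40.0 and 38.8 CPM. Its edgeR log2 difference was -1.63 (SE 0.36, adjusted p = 1.9e-05).

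Other helicase genes fell too. Mcm6 stood at 27.6 and 24.4 CPM in neural cells against 48.6 and 49.4 CPM in microglia, and edgeR gave -1.23 (adjusted p = 3.0e-04). Mcm4 and Gins2, a subunit of the GINS complex of the helicase, were also called lower. Tyms, the enzyme that makes thymidylate, stood at 16.1 and 22.9 against 37.2 and 60.3 CPM (edgeR log2 difference -1.63, adjusted p = 4.5e-06). Pcna stood at 55.3 and 47.4 against 97.8 and 97.0 CPM (edgeR log2 difference -1.25, adjusted p = 4.8e-07). For each of these genes both neural values lay below both microglial values. Hells and Rrm1, the large subunit of ribonucleotide reductase, were called lower as well, but both calls were lost when total counts replaced TMM scaling. Rrm1 also went opposite ways, at 36.8 against 32.6 CPM in the control and 21.4 against 43.4 CPM in the stressed library.

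Nasp, a chaperone that carries histones H3 and H4, was the member that rose most. Its level was 131 CPM (57 UMIs) in control and 119 CPM (78 UMIs) in stressed neural cells, against 46.9 and 49.0 CPM in microglia, and edgeR gave 1.06 (SE 0.21, adjusted p = 2.3e-06, higher in 2 of 2 libraries). Cdca7, which recruits Hells to chromatin, stood at 57.6 and 38.2 against 16.6 and 24.9 CPM (edgeR log2 difference 0.76, SE 0.30, adjusted p = 0.0201). Its partner Hells thus went the opposite way, at 27.6 and 30.5 CPM in neural cells against 47.5 and 47.5 CPM in microglia. Slbp was called higher at an edgeR log2 difference of 0.48 (SE 0.21, adjusted p = 0.0313), from 166 and 82.5 against 64.6 and 67.7 CPM. The Slbp call rested on 1 control neural cell that held 36 of the class's 72 Slbp UMIs, where the next highest cell held 4. Without that cell, a choice made after its value was seen, the control level was 83.5 CPM and edgeR gave 0.01 (SE 0.22, adjusted p = 0.966). The other 12 calls were kept without it. DESeq2 called Nasp higher and Fen1, Gins2, Mcm5, Mcm6, Pcna and Tyms lower, and these 7 were the members called in each of the 11 fits tried. With DESeq2 the lower calls were 27.3% of tested members, against 21.7% of all genes, and the higher 4.55% against 30.4%. The calls of Atad2, Mcm4, Hells, Rrm1, Cdca7 and Slbp were lost with DESeq2. That of Cdca7 was also lost with the stricter gate, the stricter cell filter and no filter on counts.

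Tipin stood at 115 and 67.2 CPM in neural cells against 52.6 and 60.5 CPM in microglia and was not called (edgeR log2 difference 0.28, adjusted p = 0.288), though it was with total counts in place of TMM. Rfc2 (76.0 and 68.7 against 60.0 and 70.2 CPM), Rrm2, Usp1, Pola1, Uhrf1, Wdr76, Gmnn and Casp8ap2 were not called either. Of the 13 called members, 12 had the same sign in both libraries, with Rrm1 the exception. Only 6 of the 13 had counting intervals off 0 in both libraries. Under total counts the calls were 4 higher and 8 lower among members, and 62.4% of all calls were higher against 48.0% with TMM, as the median of all genes moved from -0.05 to 0.30. Of the further replication genes, 3 were higher and 4 lower of 19 tested, and of the G2 and mitosis genes, 10 were higher and 8 lower of 33 tested. The neural class held 55 progenitor-like and 139 neuron-like cells in the control and 68 and 81 in the stressed library, and the part of this mix in the calls was not tested.

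**Figure D3:**
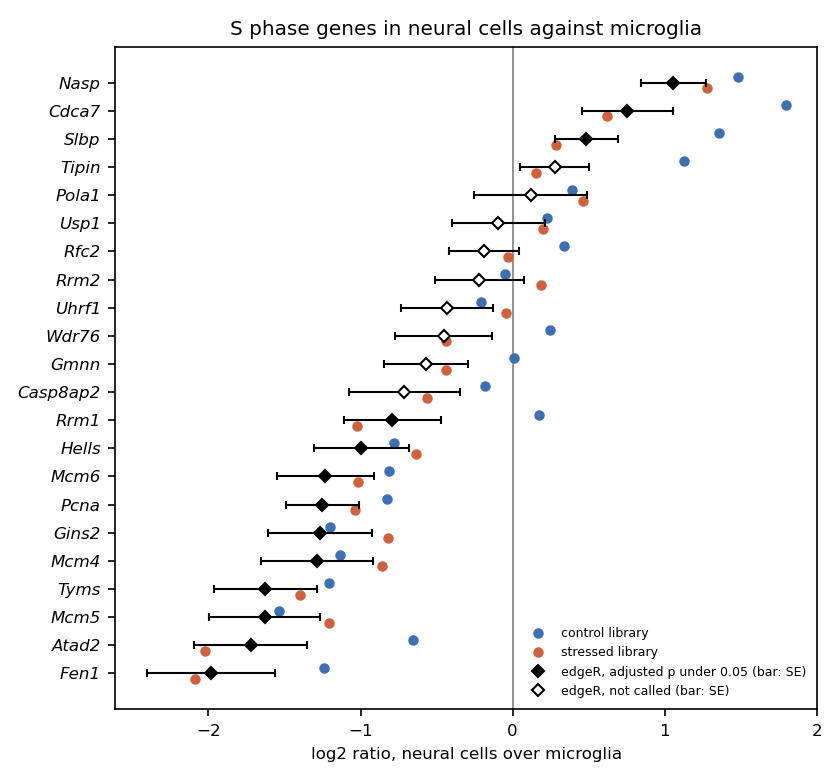
Difference between neural cells and microglia for the 22 tested genes on a log2 scale. Coloured points are the ratio of CPM in each library, diamonds the edgeR estimate with its SE, filled where the adjusted p was under 0.05. Helicase genes, Pcna, Tyms and Fen1 lie left of 0 in both libraries, Nasp and Cdca7 right of it, and the control point of Slbp includes the cell with 36 UMIs.

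Border-associated macrophages, which sit in the meninges and around vessels, were compared with microglia in the same fit. In edgeR 1 of 22 tested members was called higher and 0 lower, against 6.59% higher and 5.77% lower of 6651 genes. The members' share called higher was 4.55%, near that of all genes. An unadjusted edgeR p under 0.05 was found for 5 of 22 members, all of them higher, and for 1471 of 6651 genes. DESeq2 called 0 members. The called gene was Gmnn (geminin), at 97.9 CPM (34 UMIs) in control and 66.6 CPM (19 UMIs) in stressed cells against 43.5 and 55.9 CPM in microglia. Its edgeR log2 difference was 0.79 (SE 0.28, adjusted p = 0.0437, higher in 2 of 2 libraries), and the call was lost with a stricter gate, a stricter cell filter, total counts, DESeq2 or no filter on counts. Gins2 (69.1 and 63.1 against 42.3 and 40.4 CPM) followed at an edgeR log2 difference of 0.74 (adjusted p = 0.114), and Mcm4 (69.1 and 31.6 against 35.4 and 30.4 CPM) at 0.67 (adjusted p = 0.216). At the other end stood Wdr76 (14.4 and 17.5 against 29.2 and 33.1 CPM), at an edgeR log2 difference of -0.93 (adjusted p = 0.232), then Casp8ap2, a histone transcription cofactor, at -0.67, and Mcm6, at -0.25.

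Rfc2, Pcna and Slbp, which led in microglia, were also among the most abundant members of border-associated macrophages. So was Gmnn (97.9 and 66.6 CPM), which did not lead in microglia (43.5 and 55.9 CPM). Gins2 stood at 69.1 and 63.1 CPM in border-associated macrophages. Rfc2 stood at 107 and 87.7 CPM, Pcna at 104 and 70.1 CPM, Slbp at 89.3 and 70.1 CPM and Tyms at 83.5 and 59.6 CPM in control and stressed cells. Nasp stood at 63.4 and 56.1 CPM and Tipin at 77.7 and 52.6 CPM. Uhrf1, which reads hemimethylated DNA behind the fork, stood at 54.7 and 28.1 CPM. Atad2 stood at 72.0 and 21.0 CPM, but 14 of its 25 control UMIs lay in 1 cell, and without that cell its control level was 32.5 CPM. Of the G2 and mitosis genes, 8 of 33 tested were called higher in this class.

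The monocyte and granulocyte class, 36 cells in all, stood lowest. Of 22 tested members 0 were called higher and 3 lower by edgeR, against 4.57% higher and 7.01% lower of 6651 genes. The 3 were Mcm6 (adjusted p = 0.0178), Rrm2, the small subunit of ribonucleotide reductase (0.0470), and Uhrf1 (0.0485), and none had a UMI among the 128071 UMIs of the class. All 3 thus passed the count filter only through the other classes, so this count supports nothing. With no filter on low counts 1 of 39 members was called lower by edgeR (2.56%), against 2.93% of all genes. Against a floor of 3 UMIs over the class (23.4 CPM), Mcm6 was at least 2.10-fold lower, Rrm2 at least 1.57-fold and Uhrf1 at least 1.54-fold lower than the 49.2, 36.8 and 36.1 CPM of microglia. An unadjusted edgeR p under 0.05 was found for 6 of 22 members and 1506 of 6651 genes, and DESeq2 called 0 members. In the stressed cells Tyms (8 UMIs, 86.9 CPM), Gmnn (7 UMIs, 76.0 CPM) and Rfc2 (6 UMIs, 65.2 CPM) led, while in the control cells Tipin had 3 UMIs and no member had more. A further 8 members without a UMI in either library lay too low in microglia for the floor to separate them.

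Stressed and control microglia were compared next. Of 34 members that reached 10 CPM in either library, 3 were past 1.5 times higher in the stressed cells (8.82%), against 3.28% of 7594 genes, and 2 past 1.5 times lower (5.88%), against 7.27%. Prim1 reached 10 CPM only in the stressed library, and Ubr7 and E2f8 only in the control, each where it was high, so these counts support nothing. With the mean of both libraries at 10 CPM or more, an alternative added after the data were seen, 3 of 33 members were past it higher and 1 lower, against 2.59% and 6.19% of 7258 genes. The median log2 ratio of the 34 was 0.01, against -0.08 for all genes. Scaling by TMM factors in place of totals moved each of these ratios up by 0.105.

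Tyms had the highest ratio. It stood at 37.2 CPM (65 UMIs) in control and 60.3 CPM (315 UMIs) in stressed microglia, a log2 ratio of 0.70 (interval 0.31 to 1.11), and in female cells alone at 1.15 (interval 0.43 to 1.98). Prim1, the primase subunit that starts new strands, stood at 8.58 and 13.2 CPM (0.62, interval -0.20 to 1.54) and Cdca7 at 16.6 and 24.9 CPM. Rrm1 stood at 32.6 and 43.4 CPM (0.41, interval -0.01 to 0.86), and in female cells at 0.90 (interval 0.12 to 1.79). Rrm2 stood at 42.9 and 34.8 CPM (-0.30, interval -0.70 to 0.11), and in female cells at 0.11. The lowest ratios were those of Ubr7, a ubiquitin ligase family member, at 16.6 and 9.19 CPM (-0.85, interval -1.55 to -0.13), Cdc45 (6.86 and 3.83 CPM, 32 UMIs in all) and E2f8 (10.9 and 6.89 CPM). Uhrf1 stood at 45.2 and 33.1 CPM (-0.45, interval -0.84 to -0.05). Tyms, Ubr7 and Uhrf1 were the members of this comparison whose intervals left 0, and in female cells the intervals of Ubr7 and Uhrf1 included it while that of Rrm1 did not. The share of all genes whose intervals left 0 is not given here, so nothing is drawn from how many members did so.

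Several of the best measured members were level between the libraries. Pcna had a log2 ratio of -0.01 (interval -0.26 to 0.25), Mcm6 of 0.02 (interval -0.34 to 0.39), Hells of 0.00 (interval -0.36 to 0.38) and Slbp of 0.07 (interval -0.24 to 0.39). For these genes the 2 libraries were indistinguishable within counting error, which says nothing of other litters. Pola1, the catalytic subunit of the priming polymerase and an X-linked gene, had 40 control and 81 stressed UMIs (log2 ratio -0.56, interval -1.13 to 0.02). In these libraries 227 of 676 and 1068 of 1145 microglia were called female and 134 and 0 male, the rest having no sex call. In female cells alone the Pola1 ratio was -0.46 (interval -1.32 to 0.51). The part of sex in these ratios was not tested beyond the female cells given.

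**Figure D4:**
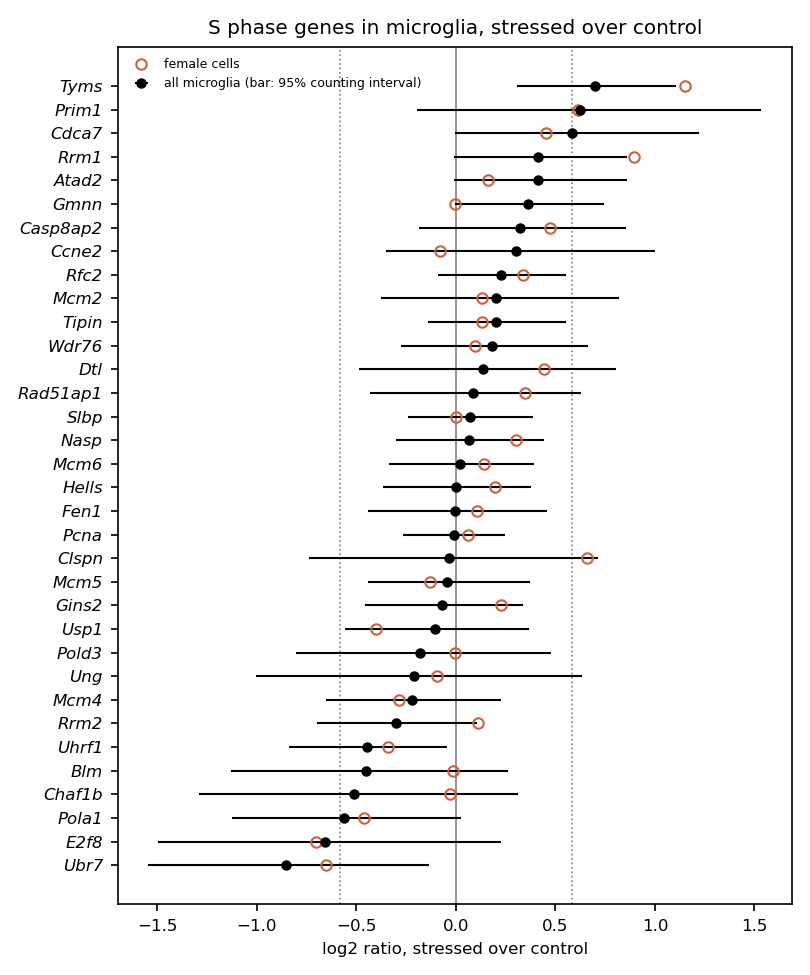
Log2 ratio of CPM, stressed over control, in microglia for the 34 members that reached 10 CPM in either library. Filled points are all microglia with 95% counting intervals, open points female cells, dotted lines 1.5 times in each direction. Tyms is farthest right, Ubr7 farthest left, and Pcna, Hells and Mcm6 sit on 0.

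In neural cells 32 members reached 10 CPM in a library, and 3 were past 1.5 times higher and 10 past 1.5 times lower in the stressed cells (9.38% and 31.2%), against 14.9% and 21.5% of 9440 genes. Blm and Chaf1b among the higher, and Mcm2, Ccne2, Fen1, Prim1 and Ubr7 among the lower, reached 10 CPM only in the library where they were high, so these counts support nothing either. With the mean of both libraries at 10 CPM or more, 2 of 28 members were past it higher and 7 lower, against 12.0% and 19.5% of 8657 genes. The median of the 32 was -0.16, against -0.09 for all genes. With at least 20 UMIs, the highest ratios were those of Tyms (16.1 and 22.9 CPM, 0.51), Gins2 (0.31) and Hells (0.14). The lowest were those of Slbp (166 and 82.5 CPM, -1.01), Rrm1 (36.8 and 21.4 CPM, -0.78) and Tipin (115 and 67.2 CPM, -0.78, interval -1.39 to -0.16). Without the cell holding 36 Slbp UMIs, the Slbp ratio was -0.02 (interval -0.65 to 0.63), and that of the summed members -0.19 (interval -0.37 to -0.02) in place of -0.31. The mean of per-cell CPM, which weights cells equally, put the summed ratio at 0.04, so its direction depended on how cells were weighted. In border-associated macrophages Tyms stood lower in the stressed cells (83.5 and 59.6 CPM), against the order in microglia and neural cells.

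Within the neural class, cells with more progenitor markers (Sox2, Hes5, Fabp7, Nes and others) were set beside those with more neuron markers (Stmn2, Tubb3, Dcx and others). Progenitor-like cells held 1385 CPM of the 39 members against 967 CPM in neuron-like cells in the control (log2 ratio 0.52, interval 0.26 to 0.78), and 1115 against 717 CPM in the stressed library (0.64, interval 0.39 to 0.89). The control cell rich in Slbp was among the progenitor-like cells, which without it held 1178 CPM (log2 ratio 0.28, interval 0.01 to 0.56). S positive cells were 5 of 51 and 9 of 68 progenitor-like cells, against 4 of 120 and 3 of 77 neuron-like cells, and the Slbp-rich cell was 1 of those 5. The summed members were thus higher in progenitor-like cells in both libraries, but far from absent in neuron-like ones. The neuron-like group held cycling cells, however, 19 of 120 in the control and 9 of 77 in the stressed library. All 4 and 3 of its S positive cells also met the G2 and mitosis threshold. The level in neurons that no longer divide was not measured. Uhrf1 had 20 UMIs against 1 in the stressed library (fold 13.4, interval 2.14 to 556) and 64.4 against 16.7 CPM in the control. Usp1, a deubiquitinase of the DNA repair machinery, stood 4.24-fold higher in the stressed library (interval 1.25 to 22.4) and 3.86-fold in the control (interval 1.17 to 16.4). Rrm2 and Gmnn went opposite ways in the libraries. Rrm2 stood at 53.7 against 19.1 CPM in the stressed library but 32.2 against 41.7 CPM in the control, and Gmnn at 56.3 against 19.1 CPM but 26.8 against 50.0 CPM. Nasp did not follow, at 118 against 138 CPM in the control and 113 against 130 CPM in the stressed library. Cdca7 also went the other way, with 1 UMI in control progenitor-like cells and 22 in neuron-like ones, and 35.8 against 42.0 CPM in the stressed library.

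To see which members mark S phase within a single class, microglia were grouped by the 41 further replication genes, which share no gene with the members. At 1000 UMIs, 67 control and 121 stressed microglia held 3 or more UMIs of that list, and 318 and 590 held none. The members summed to 2897 CPM in the first against 514 CPM in the second control group (fold 5.64, interval 4.97 to 6.40), and to 3007 against 571 CPM in the stressed library (fold 5.27, interval 4.92 to 5.65). Of 29 members with at least 10 CPM in both libraries, 28 were at least 2 times higher in both, against 2.92% of 6813 genes. The median fold was 5.52 and 6.64 for members and 1.03 and 1.02 for all genes. No test was made, since cells of 1 library are not replicates.

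Among members with at least 20 UMIs in the compared groups, Rrm2 stood farthest apart in both libraries. It was at 179 against 3.60 CPM in the control (36 and 3 UMIs) and 132 against 10.4 CPM in the stressed library. Pola1 (18 against 2 UMIs) and Hells (164 against 10.8 CPM) followed in the control, and Ccne2 (64.3 against 5.18 CPM) and the recombination factor Rad51ap1 (77.2 against 7.58 CPM) in the stressed library. In the control, Ccne2 lay under that mark and had the same share of its UMIs in the high and low groups as Rrm2 (48% and 4%). Mcm6 stood at 169 against 19.2 CPM and 122 against 24.3 CPM. Slbp was the exception, at 69.6 against 42.0 CPM (fold 1.66) in the control and 122 against 50.6 CPM (fold 2.41) in the stressed library. Nasp stood at 64.6 against 31.2 and 85.2 against 34.7 CPM, and Ubr7 differed by 1.15-fold in the stressed library. Pcna, the most abundant member, stood at 224 against 58.8 and 236 against 55.0 CPM.

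Grouping the same microglia by G2 and mitosis genes instead (97 and 165 cells with 5 or more UMIs against 436 and 780 with 0 or 1) left 17 of the 29 members at least 2 times higher in both libraries, against 3.16% of 6798 genes. The 12 below that mark were Mcm2, Mcm4, Mcm6, Hells, Cdca7, Dtl, Casp8ap2, Nasp, Pold3, Rfc2, Slbp and Wdr76. Rrm2 again stood far apart, at 94.3 against 6.66 and 91.6 against 7.97 CPM. In the stressed library Cdca7 (14.3 against 22.1 CPM) and the uracil glycosylase Ung (5.09 against 7.97 CPM) were lower in G2 and mitosis cells.

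The last comparison set microglia high in replication genes but low in G2 and mitosis genes (20 control and 39 stressed cells) beside those with the reverse (76 and 124 cells). Of 32 members with at least 20 UMIs, 23 were higher in the first group in both libraries and 4 lower in both (71.9% and 12.5%), against 24.0% and 21.5% of 5993 genes. Mcm6 stood at 177 against 58.5 CPM in the control and 120 against 48.0 CPM in the stressed library, and Cdca7 at 78.8 against 11.7 CPM in the control, with a log2 ratio of 2.49 in the stressed library. These were the 2 members whose intervals left 0 in both libraries. In the larger stressed library the intervals of Mcm2, Mcm4, Mcm5, Gmnn, Dtl, Pcna, Tipin, Uhrf1 and Hells left 0 in the same direction, which makes 11 of 32, against 4.71% of the 5993 genes, and 1 left it the other way, against 4.62%. This was Tyms, at 72.8 against 132 CPM there. Rrm2 stood lower in both libraries (log2 ratios -1.25 and -1.06, with intervals that included 0).

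**Figure D5:**
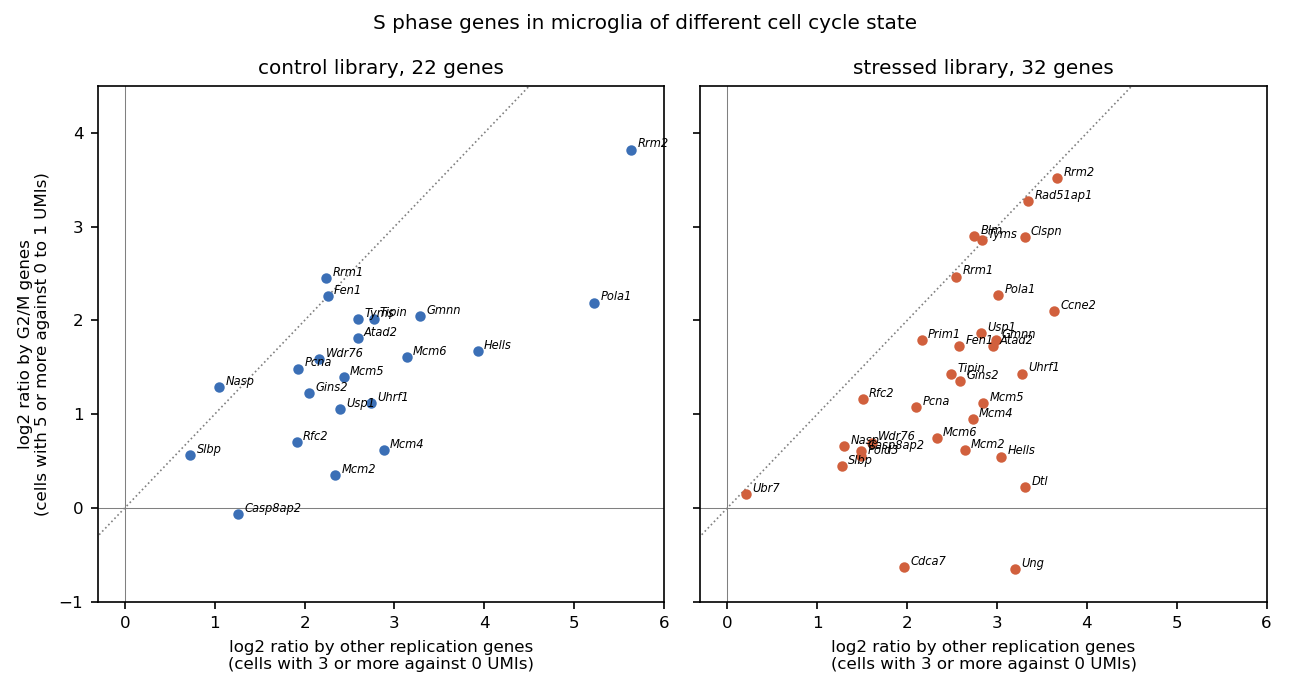
Each point is a gene in microglia of 1 library (22 genes in the control, 32 in the stressed). The x axis is its log2 ratio between cells high and low in other replication genes, the y axis that between cells high and low in G2 and mitosis genes, and the dotted line marks equal ratios. Rrm2 is high on both axes, Hells, Dtl and Cdca7 lie far below the line, and Slbp is near the origin.

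The split by replication genes gave the same direction in the other classes, a comparison added after the microglial values were seen. The members' summed fold between cells with 3 or more and with no other replication UMI was 4.37 and 5.66 in border-associated macrophages (9 and 4 high cells in control and stressed libraries) and 4.40 and 8.16 in neural cells (25 and 16 high cells). In the stressed monocyte and granulocyte class it was 1.51, from 2 high and 7 low cells.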

How the data were processed

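The deposited values are UMI counts per gene and cell, made by the authors with Cell Ranger 3.0.0; STAR, Seurat 2.4 and the builds GRCm38.p5 and mm10 are also named, per the submitters' processing notes. The counts were used as deposited, in matrices of 1156 and 1467 barcodes with 2833015 and 6582188 UMIs. Cells were kept with 500 or more genes and no more than 10% of UMIs from mitochondrial genes. A class needed at least 5 UMIs of its marker list. For macrophages this was the pan-macrophage list, with 3 UMIs of the border list or 1 of the microglia list besides. A margin of 3 times was set between the pan-macrophage and neural lists. It was also set for the monocyte and granulocyte list over the microglia and border lists together. Microglia and border-associated macrophages were parted by the larger of their 2 lists, with no margin. The lists were pan-macrophage, microglia, border-associated macrophage, monocyte and granulocyte, neural, vascular and erythroid, neural progenitor and neuron markers, Y-linked genes, 41 further replication genes and 52 G2 and mitosis genes. The 39 members, all lists and the named-gene rule were chosen with earlier results of these data known.

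Shares used cells thinned once, with a fixed seed, to 1000 UMIs, leaving out shallower cells. Levels are UMI sums scaled to 1000000 UMIs of the class (CPM), with exact Poisson intervals, and shares have exact Clopper-Pearson intervals. For a count of 0, the limit is 3 counts of the total, given beside the exact bound for shares. Ratios of sums have exact conditional intervals. Reads of 1 library are not replicates, and the intervals cover counting error only.

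Class contrasts used edgeR 4.0.16 (R 4.3.3): glmQLFit and glmQLFTest on 8 class sums with the library as a block, TMM scaling, filterByExpr and Benjamini-Hochberg adjustment over all genes. The fit had 3 residual degrees of freedom, gave all genes 1 shared spread and a biological coefficient of variation of 12.7%. DESeq2 1.42.0 was an alternative. The code was tested on simulated data, and Python 3.11.15 with scanpy 1.11.5 was used elsewhere. Doublets were kept: scrublet in scanpy called 2 and 5 cells, too few to be useful, so an alternative removed the 3.5% with the highest scores.

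Values are given for members of at least 50 CPM in a class of a library and for the 3 highest and 3 lowest ratios of each comparison among members with at least 20 UMIs, and other members are named where a role or a count calls for it. Other choices tried are the gate, the cell filter, the share threshold and depth, female cells, scaling, the count filter, the minimum level and barcodes found in both libraries.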

Additional observations from a re-analysis of the deposited data

How the results depend on the processing

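For the 36 results (shares, summed levels, counts of members called and summed ratios), 353 alternatives were computed, of which 285 kept the value within its counting interval or the count within 1.5 times. S positive shares moved with the threshold. With at least 3 UMIs they were 12.2% and 15.7% in control and stressed microglia, 16.3% and 11.4% in border-associated macrophages and 10.9% in control neural cells. With at least 7 UMIs they were 1.09% and 1.05% in microglia and 2.29% and 2.05% in neural cells, and with 10 UMIs of 2000 they were 2.67% and 3.52% in microglia. Cycling shares with at least 3 UMIs were 28.8% and 29.5% in microglia, 29.5% in stressed border-associated macrophages and 32.0% and 30.8% in neural cells; with at least 7 they were 11.9% and 12.7% in microglia and 14.3% and 13.7% in neural cells. The stricter cell filter gave cycling shares of 24.6% and 20.9% in microglia and 32.4% in control neural cells, and 10 UMIs of 2000 gave 29.2% in the latter.

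Summed levels with the stricter filter were 1309 and 1214 CPM in microglia and 1443 CPM in control neural cells. Removing doublets gave 1133 CPM in stressed microglia, female cells 1296 CPM in control neural cells and the looser gate 874 CPM in the control monocyte and granulocyte class. The microglial stressed over control log2 ratio of the summed members became -0.11 with the stricter filter, 0.16 with TMM, 0.16 with DESeq2 size factors and 0.18 with per-cell means, and the neural one -0.55 with the stricter filter and 0.045, a reversal, with per-cell means.

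Members higher in neural cells than microglia numbered 1 with the stricter gate, DESeq2 or no count filter. These were 4.76%, 4.55% and 2.56% of members, against 29.2%, 30.4% and 18.4% of all genes. Members lower numbered 6 with DESeq2, 17 with no count filter and 16 with only those 2 classes. These were 27.3%, 43.6% and 48.5% of members, against 21.7%, 17.4% and 29.4% of all genes. In border-associated macrophages the 1 higher member became 0 with the stricter gate, stricter filter, total counts, DESeq2 or no count filter. It became 3 with 2 classes (8.57%, against 7.88% of all genes). In monocytes and granulocytes the 3 lower members became 1 with the stricter gate, doublets removed or no count filter. This was 4.76%, 4.55% and 2.56% of members, against 4.81%, 7.13% and 2.93% of all genes. They became 0 with the stricter filter, DESeq2 or 2 classes. Members past 1.5 times higher in stressed microglia numbered 1 with the stricter gate or a 50 CPM minimum and 0 with the stricter filter; members past it lower numbered 7 with the stricter filter, 1 with a mean of both libraries of 10 CPM, TMM, DESeq2 size factors or per-cell means and 0 at 50 CPM. In neural cells the higher members numbered 5 with the stricter gate, 7 with per-cell means and 0 at 50 CPM, and the lower ones 5 with per-cell means and 3 at 50 CPM. Apart from the mean of both libraries, the shares of all genes past 1.5 times at these settings are not given here. Nothing is drawn from those counts. Where fewer cells or genes entered, that is part of the move; otherwise the cause was not tested.

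Dropping the barcodes found in both libraries, or the control neural cell rich in Slbp, both chosen after the data were seen, moved none of the 36 results past these limits. Single calls in neural cells did change, as Rrm1 was lost without those barcodes and Slbp without that cell. Shares and summed levels of control monocytes and granulocytes were not computed at settings that left under 10 of those cells, though the class contrasts were fitted. Leaving out a library leaves no residual degrees of freedom, so no such test was made. No paired analysis was possible because each condition has 1 library. At median depths of 1947.5 and 3767 UMIs, 56.6% and 52.4% of thinned microglia held no member UMI, so single genes cannot be called per cell.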

Other observations

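A few cells held far more UMIs of 1 member than any other cell of their class, which was noticed after the values were seen. A control neural cell of 2921 UMIs, grouped with the progenitor-like cells, held 36 UMIs of Slbp among its 42 member UMIs, and the next highest neural cell of that library held 4. After thinning to 1000 UMIs it had 11 member UMIs and 23 of G2 and mitosis genes, so it was 1 of the 10 control S positive neural cells through 1 gene. A stressed microglia of 7537 UMIs held 24 UMIs of Slbp among 25 member UMIs (next highest cell 5), and a control microglia of 7320 UMIs held 14 among 45 (next highest 6). Without these cells Slbp stood at 63.2 CPM in stressed and 56.8 CPM in control microglia. A control border-associated macrophage of 8842 UMIs held 14 of that class's 25 Atad2 UMIs (next highest 2). None of the 3 Slbp-rich or Atad2-rich macrophages was S positive after thinning.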
